A study of Mus musculus with 399 samples.

Results

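The livers described here came from male C57BL/6J (B6) mice fed a high-fat diet or chow for 16 weeks. They were chosen by their column names in the deposited count table, which give sex, strain, diet, age, animal and tissue, and not by any measured value. There are 12 samples, 6 on each diet, of the 399 in the series. The series covers liver, gonadal fat, soleus muscle and pancreas of B6 and TALLYHO/Jng (TH) mice, an inbred strain that becomes obese and, in males, diabetic. Both diet groups were weaned at 4 weeks of age onto their diet and killed at 20 weeks. The labels name no engineered allele and no drug in either group. Later comparisons use livers of female B6 and male TH mice of the same age and feeding. They also use male B6 mice killed at 5 weeks of age after 1 week on their diet. Some alternative fits use all 96 liver samples, of both sexes, strains, diets and ages. The composition of the 2 diets, the hour of killing and any fast before it were not stated in the labels. Each sample is poly(A) RNA of whole liver from 1 animal label, so fewer cells of a type and less RNA per cell cannot be told apart in any value below.

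In the liver, the transcription factors SREBP-1c and ChREBP switch on the making of fatty acids from sugar, whereas SREBP-2 switches on the making of cholesterol and is held back when cell sterol is high. PPAR-alpha drives the burning of fatty acids, and its targets rise in fasting. The nuclear receptors CAR and PXR control cytochrome P450 enzymes that clear drugs and other foreign compounds, and growth hormone, released in pulses in males, sets which of these enzymes are male-biased or female-biased.

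Library totals ran from 6599595 to 10769683 counts. The chow libraries had scaling factors of 0.936 to 1.01 and the high-fat libraries 1.00 to 1.09, so the scaling moved with diet: with library totals alone the median log2 fold change over all genes was 0.13, against 0.0056 with the factors. The dependence of log2 CPM on gene GC content also moved with diet, with slopes of -0.097 to 1.12 on chow and -0.74 to 0.70 on high-fat. The slope is estimated from the same log2 CPM values, so as a term in a fit it can take up part of the diet response. A call lost with that term cannot tell a technical shift from a diet effect. Alb, the albumin gene of hepatocytes, stood at 13943.8 to 20766.1 CPM (read count divided by the scaled library total and put on the usual CPM scale) in the 12 samples. The Y-linked Ddx3y stood at 66.8 to 86.6 CPM and Xist at or below 3.57 CPM, so the male label held. High-fat mouse 6 stood apart on the second principal component, at 41.2 against -15.2 to 9.54 for the other 11. Its root mean square deviation from the group mean was 0.36 on the log2 scale, against 0.21 to 0.31 for the others.

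**Figure D1:**
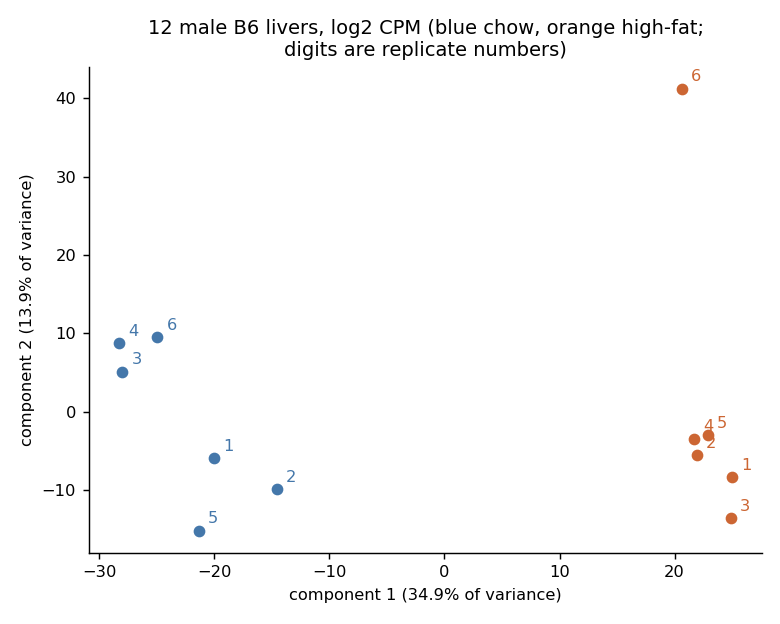
First 2 principal components of log2 CPM over the tested genes in the 12 livers, 1 point a mouse, with arbitrary units on both axes. Component 1 (34.9% of variance) separates the chow mice, at -28.2 to -14.6, from the high-fat mice, at 20.6 to 25.0, and high-fat mouse 6 lies alone on component 2.

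Of 14109 genes tested, 1986 (14.1%) passed an adjusted p of 0.05 in edgeR's quasi-likelihood test with Benjamini-Hochberg adjustment, and these are the genes said to be called. Called genes that were higher on high-fat numbered 923 (6.54%), those lower 1063 (7.53%), and 322 differed by 2-fold or more. With library totals alone the split turned to 2348 higher and 581 lower, and with the GC slope as a term 496 were higher and 617 lower. A gene whose 6 high-fat values all lie above or all below its 6 chow values is said not to overlap. Such genes made up 2.95% above and 3.95% below. These shares, and the 6.54% called higher and 7.53% called lower, are the background for each list count below. A count near its background is not a result about its list. Among lists of at least 10 tested genes, those of fatty acid synthesis, interferon response and antigen presentation were called most often upward. Xenobiotic enzymes, glutathione genes, cholesterol synthesis and amino acid breakdown were called most often downward. The lists were chosen with earlier results of these data known, which partly sets how often their members were called.

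**Figure D2:**
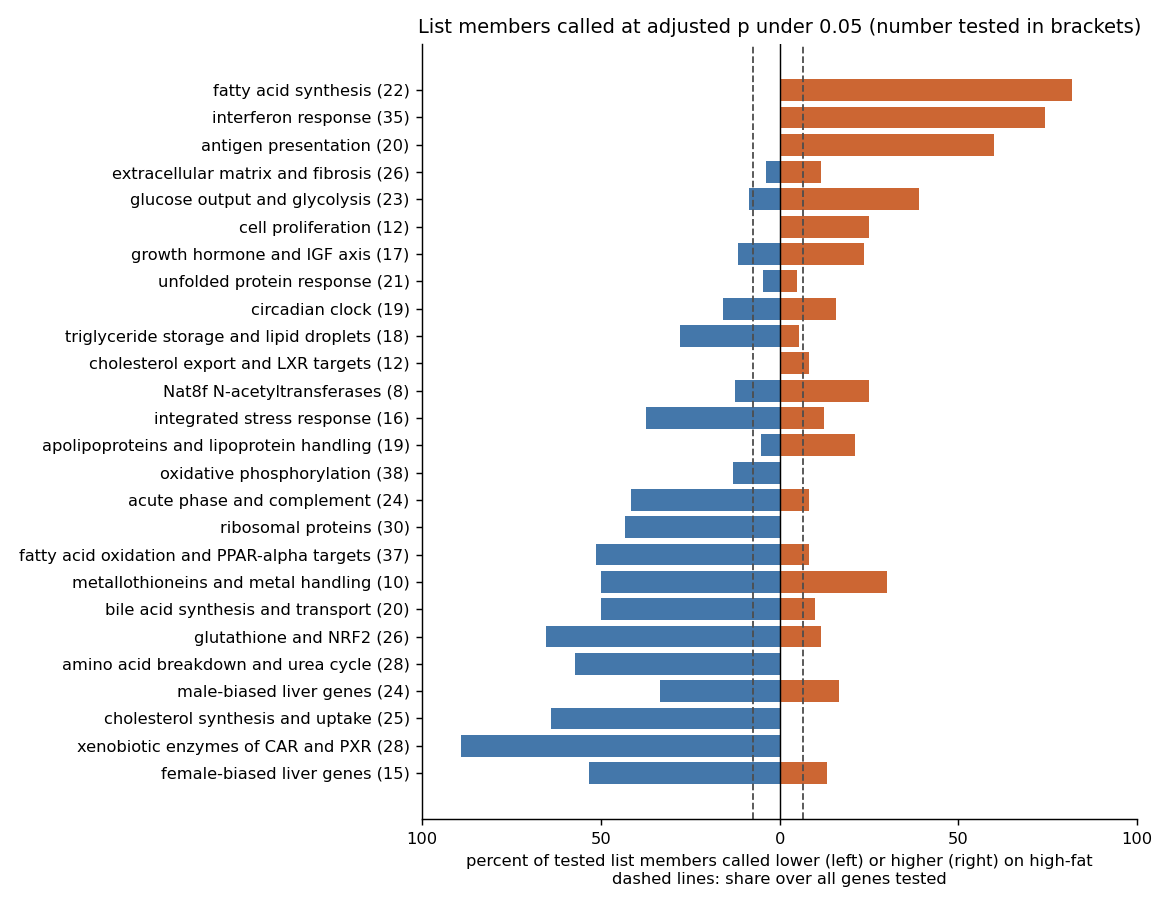
Percent of the tested members of each pathway list with at least 8 tested genes that were called lower (blue, left) or higher (orange, right) on high-fat, lists ordered by median log2 fold change, with dashed lines at the shares over all genes (7.53% and 6.54%). Fatty acid synthesis reaches 18 of 22 to the right and xenobiotic enzymes 25 of 28 to the left.

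Fatty acid synthesis genes rose for 18 of 22 tested members and fell for 0, with a median log2 fold change of 0.88 against 0.0056 over all genes, and 14 of the 22 did not overlap. The count was 17 without high-fat mouse 6 and 17 with the GC slope as a term. Fasn, the synthase that assembles palmitate, ranged over 347 to 706 CPM (median 450.5) on chow and 1238 to 1933 CPM (median 1521) on high-fat. The lowest high-fat mouse lay above the highest chow mouse (log2 fold change 1.66 ± 0.16, adjusted p = 2.2e-06). Acaca, the carboxylase that makes the malonyl units, ranged over 103 to 131 CPM (median 118) on chow and 204 to 340.3 CPM (median 258) on high-fat (1.14 ± 0.11, adjusted p = 2.5e-06). The elongases moved alike: Elovl6 ranged over 76.1 to 99.4 CPM (median 86.5) on chow and 174 to 346 CPM (median 236) on high-fat (1.51 ± 0.14, adjusted p = 1.3e-06), and Elovl5 rose by 1.52 ± 0.17 (adjusted p = 1.1e-05). Neither overlapped. Scd1, the desaturase that makes oleate and one of the most abundant transcripts, ranged over 3695 to 7006 CPM (median 4816) on chow and 5153 to 11744 CPM (median 8594) on high-fat, so the diets overlapped (log2 fold change 0.84 ± 0.18, adjusted p = 0.004). When all 96 liver samples shared 1 fit, that call was lost (adjusted p = 0.133).

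Srebf1, which encodes SREBP-1c, ranged over 91.5 to 192 CPM (median 158) on chow and 139 to 331 CPM (median 294) on high-fat (log2 fold change 0.87 ± 0.19, adjusted p = 0.0048). High-fat mouse 6, at 139 CPM, lay inside the chow range and the other 5 lay above it. Pnpla3, a lipase-like target of the same factors, had 8 reads in all chow libraries and 419 in all high-fat libraries. Its ratio was 47.9, with an exact 95% interval of 24.1 to 112 that covers counting error only, not the spread between mice.

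**Figure D3:**
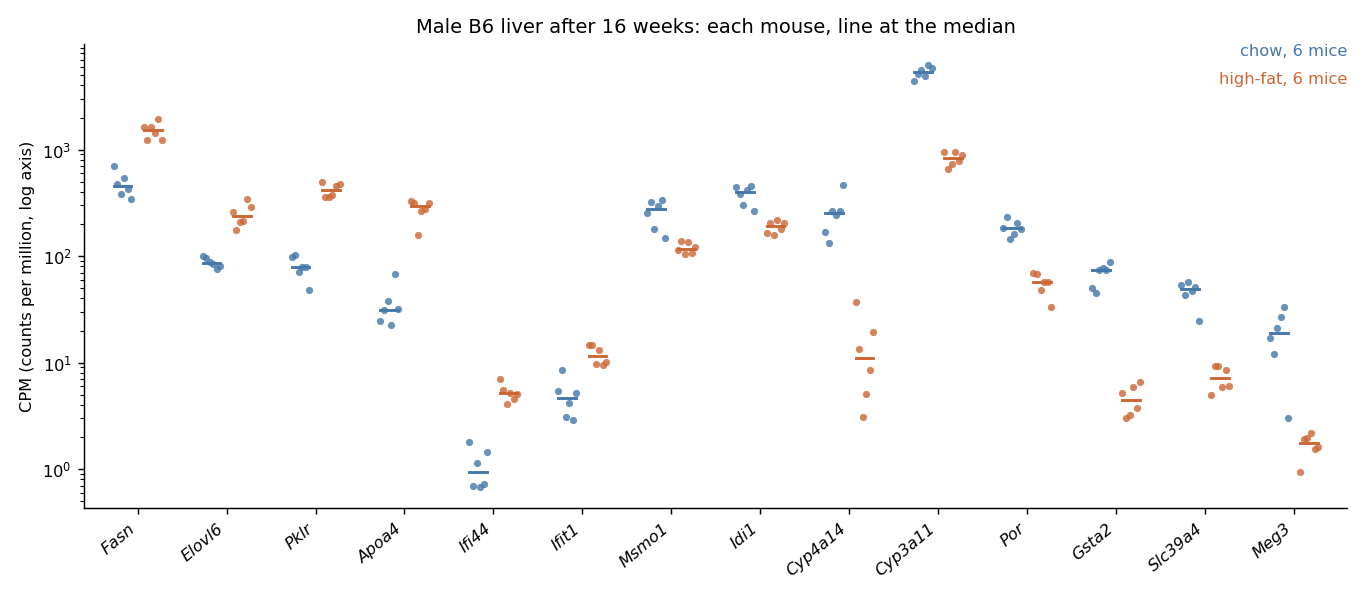
CPM of 14 genes in each of the 12 livers on a log axis, blue for chow and orange for high-fat, with a line at each median of 6 mice. From Fasn to Ifit1 the 6 high-fat points lie above the 6 chow points, and from Msmo1 to Meg3 they lie below.

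Glucose output and glycolysis genes rose for 9 of 23 tested members and fell for 2 (median 0.13), and Pklr among the 9 also belongs to the fatty acid synthesis list. The falls numbered 1 without any one of chow mice 3, 4 and 5 or high-fat mice 2, 4 and 5, and 4 without high-fat mouse 6. Pklr, the liver pyruvate kinase, had one of the lowest p-values of all: 48.1 to 103 CPM (median 79.2) on chow and 357 to 497 CPM (median 415) on high-fat (log2 fold change 2.39 ± 0.15, adjusted p = 2.2e-08). Pck1, which commits carbon to glucose output, ranged over 1083 to 2505 CPM (median 2168) on chow and 469 to 1044 CPM (median 819.5) on high-fat and fell by 1.35 ± 0.19 (adjusted p = 1.5e-04). G6pc, the last step of glucose output, was not called (0.28 ± 0.19, adjusted p = 0.371).

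Of 18 tested members of the triglyceride storage and lipid droplet list 1 rose and 5 fell, and 3 rose without high-fat mouse 3, 2 without chow mouse 3, high-fat mouse 4 or high-fat mouse 6, 6 with library totals and 0 with the GC slope as a term. Cd36, a fatty acid transporter, ranged over 48.0 to 86.8 CPM (median 64.7) on chow and 14.2 to 37.3 CPM (median 21.4) on high-fat (log2 fold change -1.54 ± 0.19, adjusted p = 3.6e-05), with no overlap. Pnpla2, the lipase of lipid droplets, ranged over 43.0 to 47.3 CPM (median 44.6) on chow and 22.6 to 35.7 CPM (median 29.3) on high-fat (log2 fold change -0.63 ± 0.088, adjusted p = 1.2e-04). Plin2, a coat protein of droplets, ranged over 258 to 333 CPM (median 324) on chow and 331 to 435 CPM (median 361) on high-fat and missed the threshold (0.24 ± 0.078, adjusted p = 0.053). It passed without high-fat mouse 3 (adjusted p = 0.0427), by DESeq2 (0.0301) and with library totals (0.0048). Cidec, a droplet fusion protein, was too low to test, at 0.511 to 1.19 CPM on chow and 0.279 to 1.10 CPM on high-fat.

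Among apolipoprotein and lipoprotein genes 4 of 19 rose and 1 fell, against 6.54% higher and 7.53% lower over all genes. The rises numbered 2 without chow mouse 4 or with the GC slope as a term and 8 with library totals, and the falls 3 without high-fat mouse 6 and 2 without chow mouse 2 or high-fat mouse 2. Apoa4, an apolipoprotein of newly made triglyceride particles, ranged over 22.8 to 68.6 CPM (median 31.5) on chow and 158 to 329.9 CPM (median 295) on high-fat (log2 fold change 2.95 ± 0.24, adjusted p = 3.9e-07). High-fat mouse 3, at 158 CPM, was far below the other 5 and still above every chow mouse. Fabp2, a fatty acid binding protein best known from the intestine, had the lowest p among called genes that rose with a mean log2 CPM of at least 1: 26.9 to 37.7 CPM (median 32.7) on chow and 79.9 to 97.4 CPM (median 86.1) on high-fat (log2 fold change 1.41 ± 0.08, adjusted p = 5.6e-09). Lpl, which frees fatty acids from circulating particles, fell by 0.98 ± 0.22 (adjusted p = 0.0061).

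Cholesterol synthesis and uptake genes fell for 16 of 25 and rose for 0 (median -0.51). With the GC slope as a term 7 were called. Of the 25, 3 did not overlap. Msmo1, a sterol demethylase of the late pathway, ranged over 149 to 337 CPM (median 276) on chow and 104 to 138 CPM (median 118) on high-fat (log2 fold change -1.10 ± 0.17, adjusted p = 2.3e-04). Idi1, the isoprenoid isomerase, ranged over 263 to 458 CPM (median 403) on chow and 159 to 217.4 CPM (median 192) on high-fat (log2 fold change -1.01 ± 0.13, adjusted p = 4.4e-05). For both genes chow mouse 6 was the lowest on chow. Srebf2, which encodes SREBP-2, fell by 0.43 ± 0.11 (adjusted p = 0.0112), a call lost with the GC slope as a term (adjusted p = 0.163).

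Bile acid synthesis and transport genes fell for 10 of 20 and rose for 2. With the GC slope as a term the falls numbered 6, as with library totals. Slco1a4, an organic anion importer and a known PXR target, ranged over 86.7 to 108 CPM (median 97.4) on chow and 18.1 to 36.3 CPM (median 28.0) on high-fat (log2 fold change -1.83 ± 0.14, adjusted p = 2.7e-07). Slco1a1, a male-biased importer, was higher on high-fat (log2 fold change 0.90 ± 0.12, adjusted p = 8.9e-05), a call lost when all 96 liver samples shared 1 fit (adjusted p = 0.0535). Cyp7a1, which starts the classic route from cholesterol to bile acids, ranged over 58.4 to 150.0 CPM (median 119) on chow and 19.1 to 99.0 CPM (median 61.1) on high-fat and missed the threshold (-0.86 ± 0.29, adjusted p = 0.0566). It passed without chow mouse 3 (adjusted p = 0.0332), without chow mouse 5 (0.0399) or without high-fat mouse 6 (0.0155). With all 12 mice it passed with the replicate number as a block (0.003) and without a filter on low counts (0.014).

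Fatty acid oxidation genes and other PPAR-alpha targets fell for 19 of 37 and rose for 3 (median -0.23), and 14 of the 37 lay below the chow range in every high-fat mouse. The rises numbered 1 without any one of chow mice 2 and 4 and high-fat mouse 2. The largest fall was that of Cyp4a14, a fatty acid omega-hydroxylase, which ranged over 132 to 469 CPM (median 253) on chow and 3.07 to 36.8 CPM (median 10.99) on high-fat (log2 fold change -4.12 ± 0.44, adjusted p = 9.2e-06). Its high-fat values spread widely and did not reach the chow range. Among peroxisomal enzymes, Ehhadh ranged over 317 to 423 CPM (median 369) on chow and 185 to 236 CPM (median 216.6) on high-fat (log2 fold change -0.79 ± 0.08, adjusted p = 4.3e-06). Angptl4, a secreted inhibitor of lipoprotein lipase, ranged over 58.9 to 129.6 CPM (median 92.9) on chow and 21.1 to 63.1 CPM (median 27.8) on high-fat (log2 fold change -1.56 ± 0.23, adjusted p = 1.6e-04). The ketone body enzyme Bdh1 was among the 3 that rose (log2 fold change 0.46 ± 0.069, adjusted p = 2.2e-04). Fgf21, a hormone of the fasted liver, was too low to test, at 0.0990 to 0.529 CPM on chow and 0.698 to 3.65 CPM on high-fat.

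Xenobiotic enzymes under CAR and PXR fell for 25 of 28 and rose for 0, with a median of -0.81, and 18 of the 28 did not overlap. Their summed level was 13038 to 16811 CPM on chow and 4976 to 6131 CPM on high-fat. Cyp2b10, the classic CAR target, had 792 reads in the chow libraries and 5 in the high-fat libraries, a ratio of 173 with an exact 95% interval of 73.9 to 535 that covers counting error only, not the spread between mice. Of the 6 high-fat libraries 3 held no read of it. Cyp3a11, the main PXR-driven P450 of mouse liver, ranged over 4447 to 6209 CPM (median 5327) on chow and 660.0 to 954 CPM (median 839.8) on high-fat (log2 fold change -2.69 ± 0.11, adjusted p = 1.7e-10). Cyp2c55 ranged over 14.2 to 25.4 CPM (median 20.6) on chow and 1.87 to 4.03 CPM (median 2.62) on high-fat (log2 fold change -2.84 ± 0.17, adjusted p = 8.7e-09), and Cyp2c29 fell by 1.11 ± 0.095 (adjusted p = 7.3e-07).

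Por, the reductase that passes electrons to all of these P450s, ranged over 145 to 233 CPM (median 182) on chow and 33.3 to 69.4 CPM (median 57.5) on high-fat (log2 fold change -1.72 ± 0.15, adjusted p = 7.7e-07). Ces2a, a carboxylesterase, had a narrow spread on each diet, 438 to 503 CPM (median 457) on chow and 144 to 180.5 CPM (median 169) on high-fat (log2 fold change -1.47 ± 0.068, adjusted p = 4.1e-10). Nr1i2, which encodes PXR itself, fell by 0.39 ± 0.079 (adjusted p = 0.0032).

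Cyp3a11 fell together with 4 near neighbours on chromosome 5 that are known as female-biased genes. Cyp3a44 ranged over 118 to 166 CPM (median 138) on chow and 12.1 to 19.4 CPM (median 16.3) on high-fat and had the lowest p of all genes (log2 fold change -3.09 ± 0.12, adjusted p = 7.8e-11). Cyp3a41a fell by 2.90 ± 0.13 (adjusted p = 2.2e-10), Cyp3a41b fell by 2.92 ± 0.12 (adjusted p = 2.0e-10) and Cyp3a16 fell by 3.28 ± 0.39 (adjusted p = 2.6e-05). Per length, in the authors' FPKM, Cyp3a41a stood at 4.45 to 5.27% of Cyp3a11 on chow and 3.23 to 4.93% on high-fat. Cyp3a44 stood at 6.19 to 7.30% on chow and 4.535 to 5.585% on high-fat, without overlap. The shares of Cyp3a41b and Cyp3a16 overlapped between the diets. The copies are so alike that reads of the abundant Cyp3a11 may be counted in them, and their separate values are uncertain. Their promoters are shown because these genes moved together here and apart in females, described later. In the 300 bases around the start site (250 before, 50 after) from RefSeq GRCm38.p6, Cyp3a41a and Cyp3a41b were identical at 97.0% of aligned positions, and Cyp3a11 and Cyp3a41a at 71.6%. The D-box TTANNTAA, the motif of PAR bZIP factors such as DBP, was in the promoters of the 4 neighbours and not in that of Cyp3a11, against 6.00% of all 32851 promoters, searched on both strands. These 4 promoters were identical to one another at 90.3 to 97.0% of aligned positions, so their matches are not independent. Of 8 Cyp3a promoters searched only these held the D-box. It was also in 21.05% of promoters of the male-biased list, among them that of Hsd3b5, which rose. In the female-biased list, which holds these genes, the share was 20.83%. Several motifs were searched, and this one is shown with the movement of these genes known. A match is not a shown binding site. The D-box is shown in capitals in 70 bases of each of the 4, all on the minus strand of chromosome 5.
Cyp3a41a, chr5:145720223-145720292: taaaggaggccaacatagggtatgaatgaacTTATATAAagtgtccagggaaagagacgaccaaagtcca
Cyp3a41b, chr5:145584817-145584886: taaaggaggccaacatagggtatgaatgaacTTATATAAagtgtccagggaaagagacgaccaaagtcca
Cyp3a44, chr5:145805961-145806030: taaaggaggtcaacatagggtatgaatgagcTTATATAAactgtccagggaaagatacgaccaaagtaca
Cyp3a16, chr5:145469814-145469883: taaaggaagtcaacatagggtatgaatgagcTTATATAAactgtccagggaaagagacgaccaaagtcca

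Glutathione and NRF2 genes fell for 17 of 26 and rose for 3 (median -0.38), and 13 lay below chow in every high-fat mouse. The falls were led by the alpha-class glutathione transferases, which join glutathione to reactive compounds. Gsta1 ranged over 18.6 to 59.4 CPM (median 46.8) on chow and 1.63 to 3.97 CPM (median 2.29) on high-fat (log2 fold change -4.11 ± 0.28, adjusted p = 6.4e-08), and Gsta2 ranged over 45.2 to 87.4 CPM (median 73.4) on chow and 3.02 to 6.57 CPM (median 4.46) on high-fat (log2 fold change -3.87 ± 0.20, adjusted p = 1.9e-09). These 2 are close copies, so reads may be divided between them. Gstm3, of the mu class, ranged over 136 to 172 CPM (median 166) on chow and 32.1 to 51.1 CPM (median 39.1) on high-fat (log2 fold change -1.997 ± 0.10, adjusted p = 1.1e-09). Nqo1, a quinone reductase and standard NRF2 target, fell by 1.09 ± 0.15 (adjusted p = 9.0e-05). Gstp3, of the pi class, rose by 0.80 ± 0.13 (adjusted p = 4.6e-04). Nfe2l2, which encodes NRF2, rose by 0.34 ± 0.073 (adjusted p = 0.0046, or 0.0547 when all 96 liver samples shared 1 fit).

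Interferon-response genes rose for 26 of 35 and fell for 0, with a median of 0.82, and 17 of the 35 lay above chow in every high-fat mouse. Their summed level was 459.8 to 593 CPM on chow and 646 to 902 CPM on high-fat. The count was 27 without high-fat mouse 6, 26 with the GC slope as a term, and 14 when all 96 liver samples shared 1 estimate of the spread. Stat2, a signal transducer of the interferon receptors, ranged over 56.7 to 71.3 CPM (median 61.5) on chow and 90.2 to 99.8 CPM (median 94.8) on high-fat (log2 fold change 0.59 ± 0.063, adjusted p = 8.0e-06). Among the effectors, Ifi44 had the largest fold at a low level, 0.676 to 1.81 CPM (median 0.937) on chow and 4.05 to 7.05 CPM (median 5.15) on high-fat (log2 fold change 2.28 ± 0.23, adjusted p = 4.7e-06). Ifit1, which binds foreign RNA, ranged over 2.90 to 8.61 CPM (median 4.66) on chow and 9.51 to 14.8 CPM (median 11.5) on high-fat (log2 fold change 1.27 ± 0.22, adjusted p = 7.5e-04). Gbp3, a guanylate-binding protein, ranged over 2.30 to 5.15 CPM (median 4.01) on chow and 6.82 to 15.7 CPM (median 9.62) on high-fat (log2 fold change 1.38 ± 0.20, adjusted p = 2.0e-04, or 0.0837 in the fit of all 96). Oas1a, a sensor of double-stranded RNA, rose by 1.31 ± 0.22 (adjusted p = 5.2e-04), Ifit3 by 1.13 ± 0.17 (adjusted p = 2.6e-04), the antiviral Rsad2 by 0.98 ± 0.16 (adjusted p = 5.0e-04) and the ubiquitin-like Isg15 by 0.78 ± 0.18 (adjusted p = 0.0075, or 0.28 in the fit of all 96).

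The promoters of 6 of these genes are shown because they moved together and share a motif that the counts did not use. The interferon-stimulated response element, searched on both strands as GAAA blocks 2 bases apart, was in 16 of 30 promoters of the list found in RefSeq GRCm38.p6. Of all 32851 promoters of the same length 3.44% held it. Capitals mark the matches, which on the opposite strand read as TTTC blocks. Each line shows 90 bases that end before the start site, read 5′ to 3′ on the gene's strand (plus for Ifit1, Ifit3 and Gbp3, minus for the others).
Ifit1, chr19:34640754-34640843: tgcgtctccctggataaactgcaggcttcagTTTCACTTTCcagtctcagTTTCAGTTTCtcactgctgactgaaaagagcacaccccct
Ifit3, chr19:34583350-34583439: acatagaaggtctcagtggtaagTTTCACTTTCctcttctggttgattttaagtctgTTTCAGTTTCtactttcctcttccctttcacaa
Gbp3, chr3:142559954-142560043: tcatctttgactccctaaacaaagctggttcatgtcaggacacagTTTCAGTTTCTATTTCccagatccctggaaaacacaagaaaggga
Oas1a, chr5:120907526-120907615: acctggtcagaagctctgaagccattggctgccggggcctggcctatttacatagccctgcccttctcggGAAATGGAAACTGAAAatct
Rsad2, chr12:26456523-26456612: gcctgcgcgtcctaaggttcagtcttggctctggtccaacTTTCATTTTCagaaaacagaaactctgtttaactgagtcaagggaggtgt
Isg15, chr4:156200841-156200930: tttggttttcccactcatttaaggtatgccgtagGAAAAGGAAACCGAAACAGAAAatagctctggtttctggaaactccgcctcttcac
A match describes letters in a window and is not a shown binding site.

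Antigen presentation genes rose for 12 of 20 and fell for 0 (median 0.42), a count of 2 when all 96 liver samples shared 1 estimate of the spread. Class I genes were among them: H2-T23 ranged over 103 to 115 CPM (median 108) on chow and 129.6 to 157 CPM (median 150.1) on high-fat (log2 fold change 0.43 ± 0.064, adjusted p = 2.1e-04, or 0.0766 in the fit of all 96), and H2-Q6 ranged over 17.5 to 31.4 CPM (median 26.4) on chow and 36.9 to 46.9 CPM (median 42.8) on high-fat (log2 fold change 0.74 ± 0.12, adjusted p = 4.8e-04). The H2-Q genes are close copies and their separate values are uncertain. Tap1, which carries peptides to class I, ranged over 11.8 to 20.3 CPM (median 15.04) on chow and 20.6 to 31.4 CPM (median 27.9) on high-fat (log2 fold change 0.80 ± 0.14, adjusted p = 8.0e-04, or 0.17 in the fit of all 96). The class II gene H2-Aa, of antigen-presenting cells, overlapped, with 15.7 to 24.9 CPM (median 20.6) on chow and 21.5 to 44.0 CPM (median 34.1) on high-fat (log2 fold change 0.76 ± 0.16, adjusted p = 0.0038, or 0.109 in the fit of all 96).

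Markers of immune cells in these livers are given beside those 2 groups. Of 18 macrophage and Kupffer cell markers tested 1 was called higher, against 6.54% over all genes, and 17 had a positive log2 fold change (median 0.29). Their summed level was 295 to 513 CPM on chow and 303 to 619 CPM on high-fat, so it overlapped. Without high-fat mouse 6, 7 of the 18 were called, 4 without chow mouse 2, and 0 without any one of chow mice 3 and 4 or high-fat mice 1, 2 and 5. Adgre1, the macrophage marker F4/80, ranged over 6.53 to 17.1 CPM (median 9.60) on chow and 3.94 to 18.6 CPM (median 14.8) on high-fat, with high-fat mouse 6 the lowest of the 12 (0.28 ± 0.29, adjusted p = 0.575). The 14 T and NK cell markers summed to 3.60 to 6.61 CPM on chow and 7.11 to 11.2 CPM on high-fat. The 1 of them that could be tested rose by 1.05. Of 3 tested monocyte and neutrophil markers 2 rose, by 0.74 and 0.84. That count was 1 without any one of chow mice 1, 3, 4 and 5 or high-fat mice 1, 2, 3, 5 and 6, with the label suffix as a term or without a filter on low counts, and 0 with the GC slope as a term or in the fit of all 96. The T and NK call was lost with the GC slope as a term. The 11 monocyte and neutrophil markers summed to 6.48 to 15.3 and 9.49 to 14.4 CPM. All 11 markers of sinusoidal endothelium had a positive log2 fold change (median 0.27) and 0 were called, or 2 without any one of chow mice 2 and 5 and high-fat mouse 6. The part of these cells in the rise of interferon and antigen presentation genes was not tested.

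Of 8 tested markers of lipid-associated macrophages 1 rose and 2 fell (median -0.049), and of 11 stellate cell markers 3 rose and 0 fell (median 0.28). Of the 2 falls 1 is Lpl, the same gene as the fall in the lipoprotein list. The other is the same gene as the fall in the matrix list below. The stellate rises numbered 0 without any one of chow mice 3 and 4 and high-fat mouse 5, or with the label suffix as a term, 1 without any one of high-fat mice 1, 2 and 4, with the GC slope as a term or in the fit of all 96. The falls among lipid-associated markers numbered 1 without any one of chow mice 1, 3, 4 and 6 and high-fat mice 2 to 5, and the rises 2 without high-fat mouse 1 and 0 with the GC slope as a term or in the fit of all 96. Trem2, a receptor of lipid-associated macrophages, was at 0.256 to 0.990 CPM on chow and 0.140 to 0.765 CPM on high-fat, and Gpnmb at or below 0.850 CPM in all 12. Col1a1, the main fibrillar collagen chain, ranged over 3.04 to 7.01 CPM (median 5.57) on chow and 2.63 to 5.53 CPM (median 3.83) on high-fat and was not called (-0.51 ± 0.20, adjusted p = 0.0972). It passed as lower without chow mouse 5 (adjusted p = 0.0291) or without high-fat mouse 1 (adjusted p = 0.0355). Of 26 matrix and fibrosis genes 3 rose and 1 fell (median 0.19, 18 positive), against 6.54% higher and 7.53% lower over all genes. When all 96 liver samples shared 1 fit, 0 matrix and fibrosis genes were called. Their summed level was 1904 to 2686 CPM on chow and 1906 to 2904 CPM on high-fat. The rises numbered 1 without any one of chow mice 3 and 4 and high-fat mice 1, 3 and 5, 5 without chow mouse 6, and 6 without high-fat mouse 6. The falls numbered 0 without any one of chow mice 1, 3, 4 and 6 or high-fat mice 2 to 5, and 2 without chow mouse 5 or high-fat mouse 1.

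Acute phase and complement genes fell for 10 of 24 and rose for 2, with 6 falls when all 96 liver samples shared 1 fit. The rises numbered 1 without any one of chow mice 1 to 4 or high-fat mice 3, 5 and 6, and 0 with the GC slope as a term. Orm2, an acute phase glycoprotein, ranged over 32.5 to 94.2 CPM (median 59.1) on chow and 15.6 to 23.1 CPM (median 19.2) on high-fat (log2 fold change -1.73 ± 0.21, adjusted p = 3.2e-05). Saa1, serum amyloid A, was wide on chow and narrow on high-fat, with 19.6 to 151 CPM (median 85.3) on chow and 20.8 to 25.8 CPM (median 23.2) on high-fat (log2 fold change -1.93 ± 0.30, adjusted p = 3.4e-04). C3, the central complement protein, ranged over 6039.7 to 7701 CPM (median 6941) on chow and 3604 to 5494 CPM (median 4683) on high-fat (log2 fold change -0.57 ± 0.10, adjusted p = 7.9e-04). Hamp2, a close copy of the iron hormone hepcidin, rose by 1.16 ± 0.25 (adjusted p = 0.0044), a call lost with the GC slope as a term (adjusted p = 0.0597).

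Metal handling genes moved in both directions, 3 up and 5 down of 10, with 1 up when the GC slope was a term. Slc39a4, a zinc importer, ranged over 24.5 to 57.5 CPM (median 49.1) on chow and 5.01 to 9.35 CPM (median 7.22) on high-fat (log2 fold change -2.66 ± 0.20, adjusted p = 1.5e-07). Chow mouse 6, at 24.5 CPM, was low among the chow mice and above all high-fat mice. Mt1, the zinc-binding metallothionein, overlapped, with 2.17 to 20.7 CPM (median 6.06) on chow and 0.876 to 3.47 CPM (median 1.66) on high-fat (log2 fold change -2.23 ± 0.49, adjusted p = 0.0052, or 0.0829 when all 96 liver samples shared 1 fit). Slc30a10, a manganese exporter, rose (log2 fold change 0.91 ± 0.11, adjusted p = 2.1e-05), and Tfrc, the transferrin receptor, fell by 1.05 ± 0.14 (adjusted p = 7.1e-05).

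Of 17 growth hormone and IGF axis genes 4 rose and 2 fell. The rises numbered 2 without any one of chow mice 1, 3 and 4 or high-fat mice 1, 4 and 5, and the falls 4 without high-fat mouse 6. Cish, a STAT5 target that damps cytokine signals, ranged over 1.98 to 22.8 CPM (median 4.73) on chow and 9.64 to 63.8 CPM (median 52.5) on high-fat (log2 fold change 2.21 ± 0.51, adjusted p = 0.0074). The 2 highest chow mice, 2 and 5, lay above high-fat mouse 6, at 9.64 CPM. Socs2, of the same family, ranged over 5.41 to 15.7 CPM (median 9.82) on chow and 12.8 to 51.0 CPM (median 27.0) on high-fat (log2 fold change 1.48 ± 0.31, adjusted p = 0.0038). Onecut1 ranged over 2.12 to 27.6 CPM (median 5.42) on chow and 19.4 to 53.0 CPM (median 32.1) on high-fat (log2 fold change 1.56 ± 0.50, adjusted p = 0.0485), and chow mice 2 and 5 were again the highest on chow. That call was lost without any one of chow mice 1, 3, 4 and 6 or high-fat mice 1 to 5, with adjusted p of 0.0515 to 0.103. It was also lost by DESeq2 (0.106), with the GC slope (0.128) or the label suffix (0.059) as a term and in the fit of all 96 (0.0504). Igf1, the hormone that liver makes under growth hormone, was not called (-0.074 ± 0.081, adjusted p = 0.599).

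Sex-biased liver genes were called in both directions. Of 24 male-biased genes 4 rose and 8 fell, and the falls numbered 13 without chow mouse 6. When all 96 liver samples shared 1 fit, 1 male-biased gene rose and 5 fell. Of 15 tested female-biased genes 2 rose and 8 fell, with 0 rises in the fit of all 96. The falls include Cyp3a41a, Cyp3a41b, Cyp3a44 and Cyp3a16, close copies whose separate values are uncertain. Hsd3b5, a male-specific steroid enzyme, ranged over 141 to 219.2 CPM (median 177) on chow and 259 to 319 CPM (median 282) on high-fat (log2 fold change 0.67 ± 0.10, adjusted p = 2.7e-04, or 0.368 when all 96 liver samples shared 1 fit). Cyp4a12a, a male-specific omega-hydroxylase, ranged over 532 to 629 CPM (median 583) on chow and 103 to 261 CPM (median 214.6) on high-fat (log2 fold change -1.53 ± 0.17, adjusted p = 1.0e-05). The female-biased Cyp2c69 rose by 0.55 ± 0.10 (adjusted p = 9.1e-04, or 0.262 in the fit of all 96). Mup21, one of the major urinary proteins, rose without overlap, with 129 to 192 CPM (median 161) on chow and 359 to 546 CPM (median 388) on high-fat (log2 fold change 1.36 ± 0.12, adjusted p = 7.7e-07).

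Of the 6 called genes with the highest CPM, 5 were other major urinary proteins (Mup22, Mup19, Mup18, Mup10 and Mup16), carriers of pheromones that males pass in urine, and the other was Scd1. Mup22 ranged over 5117 to 11628 CPM (median 9757) on chow and 5058 to 7794 CPM (median 6082) on high-fat (log2 fold change -0.57 ± 0.16, adjusted p = 0.0259), with chow mouse 6 lowest on chow. Mup19 ranged over 3824 to 10900.5 CPM (median 9442) on chow and 4419 to 7022 CPM (median 4849.5) on high-fat (log2 fold change -0.71 ± 0.20, adjusted p = 0.0238). All 5 calls were lost with the GC slope as a term (adjusted p of 0.217 to 0.389), with the suffix of the animal label as a term (0.0731 to 0.164) and when all 96 liver samples shared 1 fit (0.198 to 0.327). Without any one of chow mice 1, 3 and 4 or high-fat mice 1 and 5, all but Mup10 had adjusted p of 0.0528 to 0.0847. Without high-fat mouse 4 Mup19 had 0.0502 and Mup16 0.0563, and without high-fat mouse 6 Mup16 had 0.0546. Mup genes are near-identical copies, and their separate counts are uncertain.

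Of 19 clock genes 3 rose and 3 fell. The falls numbered 0 when all 96 liver samples shared 1 fit and 5 without high-fat mouse 1. Npas2, a partner of BMAL1, ranged over 0.926 to 1.69 CPM (median 1.59) on chow and 2.81 to 8.71 CPM (median 6.72) on high-fat (log2 fold change 2.06 ± 0.28, adjusted p = 7.5e-05). Nr1d1, the repressor REV-ERB alpha, ranged over 91.3 to 159.9 CPM (median 107) on chow and 46.1 to 69.1 CPM (median 56.2) on high-fat (log2 fold change -1.03 ± 0.14, adjusted p = 6.7e-05, or 0.0951 in the fit of all 96). Per1 fell by 1.46 ± 0.31 (adjusted p = 0.0044, or 0.06 in the fit of all 96), and Arntl, which encodes BMAL1, was not called (0.41 ± 0.27, adjusted p = 0.347). The largest rise among called genes with a mean log2 CPM of at least 1 was that of Rgs16, a brake on G protein signals, with 0.145 to 3.61 CPM (median 1.84) on chow and 8.66 to 138 CPM (median 25.7) on high-fat (log2 fold change 4.58 ± 0.72, adjusted p = 3.4e-04). Its high-fat values spread widely and did not reach down to the chow range.

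Amino acid breakdown and urea cycle genes fell for 16 of 28 and rose for 0 (median -0.40), and 11 of the 28 did not overlap. Cth, which cleaves cystathionine to cysteine, ranged over 429 to 712 CPM (median 609) on chow and 188 to 287 CPM (median 228) on high-fat (log2 fold change -1.39 ± 0.12, adjusted p = 7.7e-07). Oat, the ornithine aminotransferase, ranged over 1004 to 1549 CPM (median 1235) on chow and 504 to 674 CPM (median 609.6) on high-fat (log2 fold change -1.07 ± 0.10, adjusted p = 3.3e-06). Ass1, of the urea cycle, fell by 0.63 ± 0.12 (adjusted p = 0.0019). Asns, the asparagine synthetase and a target of the stress factor ATF4, ranged over 4.64 to 20.9 CPM (median 8.84) on chow and 0.510 to 1.40 CPM (median 0.928) on high-fat (log2 fold change -3.41 ± 0.40, adjusted p = 2.0e-05), while 2 of 16 members of its integrated stress response list rose and 6 fell. With the GC slope as a term 1 rose and 2 fell, and 1 rose without chow mouse 1, chow mouse 2 or high-fat mouse 5. Ribosomal protein genes fell for 13 of 30 by small amounts (median -0.20). That count was 24 without high-fat mouse 6, 7 without high-fat mouse 1, 8 without 4, 7 without 5, and 3 with the GC slope as a term or with library totals.

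Slc17a8, a vesicular glutamate transporter, ranged over 3.19 to 9.90 CPM (median 4.24) on chow and 32.7 to 53.6 CPM (median 49.8) on high-fat (log2 fold change 3.13 ± 0.21, adjusted p = 3.6e-08). Hcn3, a pacemaker channel, ranged over 1.72 to 8.22 CPM (median 3.49) on chow and 23.4 to 59.6 CPM (median 29.5) on high-fat (log2 fold change 2.98 ± 0.29, adjusted p = 3.7e-06). Inhba, a subunit of activin A, ranged over 6.20 to 11.02 CPM (median 8.37) on chow and 27.1 to 52.3 CPM (median 35.2) on high-fat (log2 fold change 2.14 ± 0.18, adjusted p = 7.3e-07). These 3 did not overlap. Slc25a30, a mitochondrial carrier, rose by 2.17 ± 0.26 (adjusted p = 2.9e-05), and Gna14, a G protein subunit, by 2.15 ± 0.25 (adjusted p = 2.1e-05). Of the Dlk1-Meg3 imprinted locus list 2 of 6 genes were tested, and both fell. Meg3, a noncoding RNA, ranged over 3.04 to 33.1 CPM (median 19.2) on chow and 0.935 to 2.21 CPM (median 1.75) on high-fat (log2 fold change -3.49 ± 0.43, adjusted p = 3.9e-05). Rian, from the same locus, ranged over 1.59 to 14.1 CPM (median 7.40) on chow and 0.140 to 1.17 CPM (median 0.873) on high-fat (log2 fold change -3.46 ± 0.45, adjusted p = 5.9e-05). In both, chow mouse 6 was the lowest on chow. Cyp26a1, which breaks down retinoic acid, overlapped, with 3.57 to 73.2 CPM (median 21.9) on chow and 1.02 to 8.06 CPM (median 2.57) on high-fat (log2 fold change -3.23 ± 0.70, adjusted p = 0.0048), a call lost with the GC slope as a term (adjusted p = 0.0733).

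Several genes varied widely within a diet. Cxcl1, a neutrophil chemokine, stood at 22.7, 54.6 and 75.4 CPM in chow mice 1, 3 and 4 and at 1.31 to 3.44 CPM in the other 3 chow mice. On high-fat it stood at 1.10 to 3.23 CPM. Its log2 fold change of -3.46 ± 0.82 (adjusted p = 0.0089) thus rests on 3 chow mice. These are the 3 chow mice whose animal labels end in the letter a, which among the high-fat mice only mouse 1 has. With that suffix as a term the value was -1.80 (adjusted p = 0.0814). With the GC slope as a term the adjusted p was 0.0574. The 8 genes with the largest spread among high-fat mice, at a mean log2 CPM of at least 3, were Rgs16, Gadd45g, Foxq1, Cyp4a14, Igfbp1, Cyp4a10, Gm6166 and Fabp5. Their SD of log2 CPM was 1.07 to 1.56, against a median of 0.20 over all genes. High-fat mouse 6 was the lowest of its group for Foxq1, a forkhead factor, at 2.34 CPM against 7.82 to 40.9 for the other 5. It was the highest for Fabp5, at 144 CPM against 15.5 to 48.2. Gadd45g, a stress-induced growth regulator, ranged over 1.08 to 7.89 CPM (median 2.69) on chow and 2.19 to 44.4 CPM (median 11.9) on high-fat (log2 fold change 2.13 ± 0.60, adjusted p = 0.0246). Its call was lost without chow mouse 1, chow mouse 3 or high-fat mouse 3 (adjusted p = 0.0551, 0.0523 and 0.0635), with the GC slope or the label suffix as a term (0.0997 and 0.088) and in the fit of all 96 (0.057). High-fat mouse 1 was lowest for Igfbp1, an insulin-repressed binding protein, at 4.51 CPM against 21.1 to 49.9 (-1.03 ± 0.40, adjusted p = 0.101, or 0.046 without chow mouse 1 and 0.0395 without high-fat mouse 6). With every mouse kept, Igfbp1 passed with the replicate number as a block (9.2e-04), with the label suffix as a term (0.0207) and without a filter on low counts (0.0396).

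**Figure D4:**
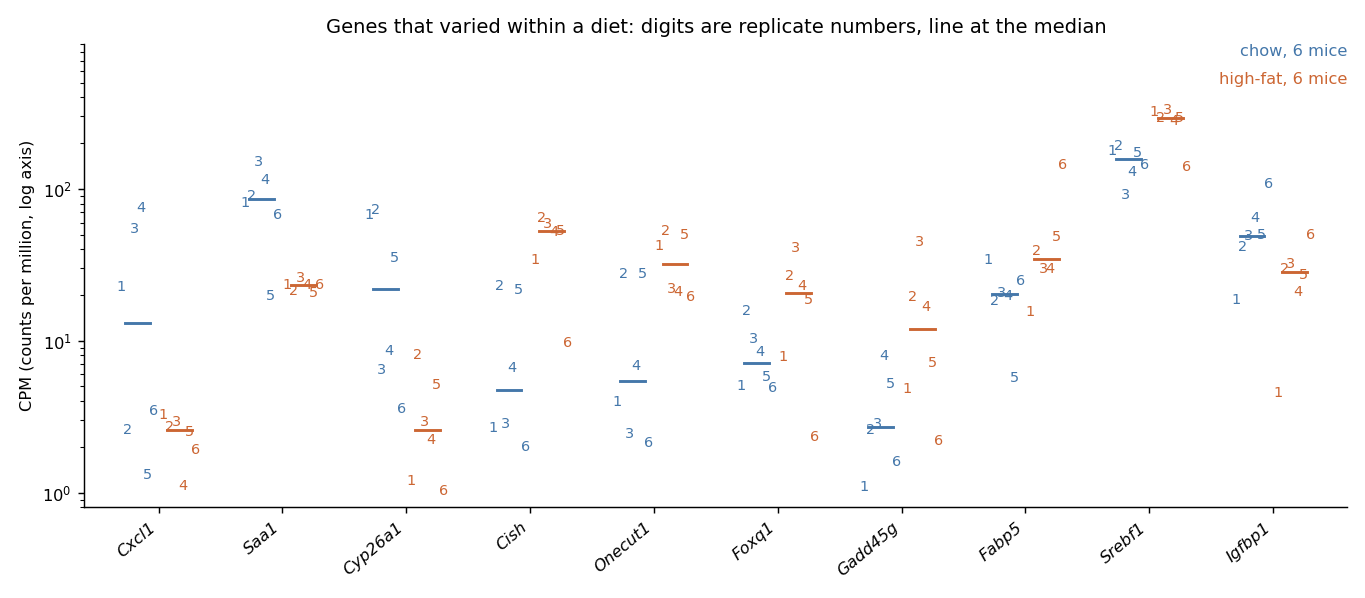
CPM of 10 genes on a log axis in each of the 12 livers, blue for chow and orange for high-fat, with digits for the replicate number and a line at the median of 6 mice. Chow mice 1, 3 and 4 are high for Cxcl1, chow mice 2 and 5 for Cish and Onecut1, and high-fat mouse 6 is low for Foxq1 and high for Fabp5.

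The response was next set beside that of female B6 mice of the same age and feeding, 6 on each diet, to ask whether the sexes differ. Values for other groups are on 1 scaling over all 96 liver samples. The difference of the responses, male minus female, was called for 102 of 16016 genes (0.637%), 29 above 0, and for 273 by DESeq2 and 295 when all 96 liver samples shared 1 fit. The Cyp3a neighbours, all lower on high-fat in males, had positive log2 fold changes in females. In females Cyp3a41a ranged over 200.3 to 851 CPM (median 453) on chow and 385 to 2766 CPM (median 2585) on high-fat, so 1 or more high-fat females lay inside the chow range (log2 fold change 2.14 ± 0.42, adjusted p = 0.0105). In females Cyp3a41b had log2 fold change 2.19 ± 0.44, adjusted p = 0.0119, Cyp3a44 had log2 fold change 1.67 ± 0.36, adjusted p = 0.0173, and Cyp3a16 had log2 fold change 0.75 ± 0.51, adjusted p = 0.396. The difference for Cyp3a41a was -5.07 ± 0.48 (adjusted p = 8.0e-07), and those for Cyp3a41b, Cyp3a44 and Cyp3a16 were -5.14 ± 0.51, -4.78 ± 0.42 and -4.06 ± 0.71. Cyp3a11 fell in both sexes, and in females it fell by 1.68 ± 0.14, opposite in direction to Cyp3a41a. Hsd3b5 ranged over 0.0730 to 0.630 CPM (median 0.343) in chow females and 6.20 to 49.5 CPM (median 12.8) in high-fat females, a rise (log2 fold change 5.92 ± 0.67, adjusted p = 1.8e-04) to a level below that of every B6 male of that age (difference -5.26 ± 0.66, adjusted p = 4.7e-05).

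For other genes the male response lay above the female one. Rgs16 in chow females stood at 23.7 to 179.9 CPM (median 41.6), above every chow male of that age, and in high-fat females at 6.23 to 110.5 CPM (median 17.8) (difference 5.53 ± 1.08, adjusted p = 0.0117). Slc17a8 had a response of 0.10 ± 0.23 in females (difference 3.01 ± 0.33, adjusted p = 5.6e-06), and Crybg2, a crystallin-domain protein, -0.11 ± 0.19 in females against 3.11 ± 0.28 in males. Pck1, which fell in males, had 0.036 ± 0.23 in females (difference -1.41 ± 0.33, adjusted p = 0.0387). Saa1 fell in males, with 1.04 ± 0.42 in females (difference -3.00 ± 0.57, adjusted p = 0.0093). No member of the fatty acid synthesis, cholesterol synthesis, interferon, antigen presentation or amino acid breakdown lists was called in this difference, which does not show that the sexes responded alike.

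Male TH mice of the same age, 6 on each diet, were compared to ask whether the strains differ. The difference, B6 minus TH, was called for 439 of 14879 genes (2.95%), 179 above 0, and for 668 by DESeq2. Of the PPAR-alpha list 11 of 38 were called, of the matrix list 10 of 27 and of the female-biased list 7 of 17. Cyp4a14 ranged over 0.593 to 4.78 CPM (median 2.88) in chow TH males and 1.81 to 13.8 CPM (median 4.63) in high-fat TH males, against 147 to 519.5 CPM (median 280.5) in chow B6 males on the same scaling (difference -5.29 ± 0.76, adjusted p = 2.9e-04). Cd36 rose in TH by 2.19 ± 0.45, from 2.81 to 19.9 CPM (median 12.5) to 18.4 to 109 CPM (median 46.7) (difference -3.73 ± 0.51, adjusted p = 1.9e-04). Col1a1 had 2.47 ± 0.46 in TH (difference -2.98 ± 0.56, adjusted p = 0.0035). Scd1 had 3.16 ± 0.32 in TH against 0.84 ± 0.18 in B6 (difference -2.32 ± 0.37, adjusted p = 7.8e-04), and ended at 3323 to 14501 CPM (median 11873) in TH and 5718 to 13048 CPM (median 9596) in B6 on high-fat.

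Fam198a had the largest difference below 0 after Cyp4a14, -4.32 ± 0.66 (adjusted p = 6.1e-04), with 5.80 ± 0.54 in TH. The Cyp3a11 fall was larger in B6 (difference -1.27 ± 0.17, adjusted p = 1.9e-04). Gstm3 fell in B6 and had 0.039 ± 0.45 in TH (adjusted p = 0.971, difference -2.03 ± 0.50, adjusted p = 0.0226). Above 0, Adgrf1, an adhesion G protein-coupled receptor, fell by 3.13 ± 0.66 in TH and had -0.10 ± 0.21 in B6 (difference 3.03 ± 0.69). Ly6a, a surface protein induced by interferon, was higher on high-fat in B6, with 3.13 to 5.05 CPM (median 4.64) on chow and 6.61 to 13.1 CPM (median 8.75) on high-fat (log2 fold change 1.07 ± 0.18, adjusted p = 7.9e-04, or 0.124 in the fit of all 96), and had -1.80 ± 0.26 in TH (difference 2.87 ± 0.34, adjusted p = 3.6e-05). Avpr1a, the vasopressin receptor of hepatocytes, ranged in B6 over 18.5 to 25.4 CPM (median 20.2) on chow and 37.96 to 55.4 CPM (median 44.9) on high-fat (difference 1.75 ± 0.26). Gna14 also responded more in B6 (difference 1.83 ± 0.34). No member of the interferon, antigen presentation or amino acid breakdown lists was called in this difference, and this does not show that the strains responded alike.

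Male B6 mice after 1 week of feeding, 5 weeks old and 6 on each diet, were compared with the 20-week-old mice, so feeding time and age cannot be told apart in this difference. The difference, 16 weeks minus 1 week, was called for 59 of 15169 genes (0.389%), 30 above 0. The count was 232 by DESeq2, 112 when all 96 liver samples shared 1 fit and 9 with the GC slope as a term. Of the genes named here for this difference Cyp2c29, Slc39a4 and Angptl4 kept their call with the GC slope and the other 8 lost it (adjusted p of 0.0534 to 0.172). Elovl6, Nr1d1, Loxl4 and Tcim lost it in the fit of all 96 as well. At 1 week Fasn had 0.031 ± 0.34 (adjusted p = 0.978) and Elovl6 0.11 ± 0.27 (adjusted p = 0.865, difference for Elovl6 1.39 ± 0.32, adjusted p = 0.0484). The difference was called for 3 of 22 fatty acid synthesis genes, and Fasn was not among them. Xenobiotic and cholesterol lists had negative medians at 1 week too, -0.98 and -0.78. At 1 week Cyp2c29 fell by 2.21 ± 0.16, more than at 16 weeks (difference 1.10 ± 0.18, adjusted p = 0.0069). Slc39a4 had -0.49 ± 0.12 at 1 week (difference -2.17 ± 0.24, adjusted p = 4.8e-05), and Angptl4 0.22 ± 0.24 (difference -1.79 ± 0.36, adjusted p = 0.0256). Asns had 0.14 ± 0.51 (difference -3.57 ± 0.73), and Hspa1a, a heat shock protein, 0.59 ± 0.27 (difference -2.46 ± 0.54). Above 0 stood Hamp2 (2.25 ± 0.47), Igf2bp2, an RNA-binding protein (2.12 ± 0.48), Loxl4, a collagen crosslinker (1.75 ± 0.40), and Tcim (1.40 ± 0.31). Nr1d1 had 0.32 ± 0.18 at 1 week (difference -1.36 ± 0.25, adjusted p = 0.0133). These 3 comparisons share the 12 male B6 samples.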

How the data were processed

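Poly(A) RNA of whole liver from 12 male B6 mice was compared, with 84 other liver samples used for the other groups and alternatives. The authors trimmed reads with Trimmomatic 0.39 and aligned them with HISAT2 2.2.1 to GRCm39, per the submitters' processing notes. How reads were counted, whether strand was used and which annotation applied is not given in the sources used here, so overlapping, antisense and near-identical genes may share reads. The authors deposited whole-number counts per gene, and a table of FPKM that they normalized for length and depth, used here only for levels between genes. Symbols were matched for 52073 of 56980 identifiers.

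Counts were filtered (edgeR's filterByExpr, minimum 10 counts, 15 in total), scaled by TMM and fitted with edgeR 4.0.16 (R 4.3.3, quasi-likelihood F test, Benjamini-Hochberg threshold 0.05) in the 12 samples, without blocks. Differences between responses were interaction terms in fits of 24 samples. Standard errors are the log2 fold change over the square root of F. CPM is scaled by TMM, and spread was taken on log2 CPM with a prior count of 1. On simulated counts for the diet comparison the test recovered 90 of 97 genes changed by 1 on the log2 scale and 47 of 98 changed by 0.5. Those counts were drawn from edgeR's own fitted spread, with no GC slope and no mouse that stood apart. Recovery in the real counts may therefore be lower. Promoters are RefSeq GRCm38.p6, another build than that of the counts, so no coordinates were joined.

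Genes were named by rule. Among called genes that had no predicted or clone-style symbol and whose mean log2 CPM was 1 or more, these were the 12 largest rises and falls, the 6 with the highest CPM, the 6 with the lowest p in each direction, and the 4 largest and smallest values of each difference. List members were added, and the 8 with the largest spread on high-fat whose mean log2 CPM was 3 or more. The samples were set by their labels, but the comparisons and the 40 gene lists were chosen with earlier results of these data known. Alternatives were RLE scaling, library totals, no filter, DESeq2 1.42.0, all liver groups in 1 fit, the replicate block, each mouse left out, and terms for GC slope and animal label suffix. Library totals, the GC slope and the suffix were added after the data were seen. Sample numbers were given in accession order, and the main fit did not pair mice by them. Other tissues were not analysed here. Some single genes are not reported here.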

Additional observations from a re-analysis of the deposited data

Results flagged for a closer look

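In 17 of 222 sets of 6 values (each named gene on each diet) 1 mouse stood apart from the other 5, by a gap test that chance alone passes in about 1 of 20 groups. Chow mouse 6 was low for Mup10 at 3793 CPM against 7172 to 9261, Mup19 at 3824 CPM against 7701 to 10900.5, Rian at 1.59 CPM against 6.63 to 14.1 and Slc39a4 at 24.5 CPM against 43.1 to 57.5 in the other 5. High-fat mouse 6 was low for Cish at 9.64 CPM against 33.8 to 63.8, Gna14 at 6.57 CPM against 9.92 to 12.4, Per1 at 2.34 CPM against 5.61 to 8.38 and Srebf1 at 139 CPM against 282 to 331 in the other 5. Chow mouse 5 was low for Col1a1 at 3.04 CPM against 5.42 to 7.01 and Fabp5 at 5.66 CPM against 18.3 to 33.9 and high for Slc25a30 at 55.5 CPM against 15.9 to 22.1 in the other 5. Chow mouse 2 was low for Pck1 at 1083 CPM against 1911 to 2505 and Plin2 at 258 CPM against 304 to 333 in the other 5. High-fat mouse 3 was low for Apoa4 at 158 CPM against 264 to 329.9 and high for Mup21 at 546 CPM against 359 to 411 in the other 5. Chow mouse 1 was low for Cyp3a41b at 64.2 CPM against 80.7 to 92.1 in the other 5. High-fat mouse 1 was low for Igfbp1 at 4.50 CPM against 21.1 to 49.9 in the other 5. Chow mouse 6 and high-fat mouse 6 gave the most such values, and the part of library or animal in them was not tested.

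Of the 115 named genes, 14 had diet responses that differed between male and female B6 mice (male minus female), by an interaction term at an adjusted p of 0.05 in edgeR. Over all genes tested the share was 0.637%. Some genes were named for their values in this difference, so the count is partly set by that choice. The difference in log2 fold change lay below 0 for Hsd3b5 (-5.26), Cyp3a41b (-5.14), Cyp3a41a (-5.07), Cyp3a44 (-4.78), Cyp3a16 (-4.06), Asns (-3.21), Saa1 (-3.00), Slc39a4 (-2.11), Pck1 (-1.41) and Cyp3a11 (-1.03). It lay above 0 for Igf2bp2 (2.12), Slc17a8 (3.01), Crybg2 (3.20) and Rgs16 (5.53).

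Of the 115 named genes, 27 had diet responses that differed between B6 and TH males (B6 minus TH), by an interaction term at an adjusted p of 0.05 in edgeR. Over all genes tested the share was 2.95%. Here too some genes were named for their values in the difference, which partly sets the count. The difference in log2 fold change lay below 0 for Cyp4a14 (-5.29), Fam198a (-4.32), Cxcl1 (-4.00), Cd36 (-3.73), Col1a1 (-2.98), Scd1 (-2.32), Gstm3 (-2.03), Apoa4 (-1.82), Lpl (-1.60), Nqo1 (-1.57), Cyp3a44 (-1.49), Cyp3a11 (-1.27), Cyp3a41a (-1.23), Slc39a4 (-1.21), Cyp3a41b (-1.21), Cyp4a12a (-1.15), Tfrc (-1.08), Ehhadh (-0.80) and Nfe2l2 (-0.79). It lay above 0 for Cyp2c69 (0.59), Slco1a1 (0.95), Slc17a8 (1.28), Hamp2 (1.74), Avpr1a (1.75), Gna14 (1.83), Ly6a (2.87) and Adgrf1 (3.03). In the fit of all 96 liver samples the call was lost for Cyp2c69 (0.522), Cyp3a41a (0.161), Cyp3a41b (0.185), Cyp4a12a (0.305), Slco1a1 (0.252) and Tfrc (0.213), with adjusted p in brackets. It was lost with the GC slope as a term for Hamp2 (0.0631) and Slc39a4 (0.055), and under the replicate block for Nfe2l2 (0.0509) and Slc39a4 (0.0537). The B6 response of Cxcl1 rests on the chow mice whose labels end in the letter a. That suffix was not tried as a term for this difference.

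Of the 115 named genes, 11 had diet responses that differed between 16 weeks and 1 week of feeding (16 weeks minus 1 week), by an interaction term at an adjusted p of 0.05 in edgeR. Over all genes tested the share was 0.389%. Again some genes were named for their values in the difference, which partly sets the count. The difference in log2 fold change lay below 0 for Asns (-3.57), Hspa1a (-2.46), Slc39a4 (-2.17), Angptl4 (-1.79) and Nr1d1 (-1.36). It lay above 0 for Cyp2c29 (1.10), Elovl6 (1.39), Tcim (1.40), Loxl4 (1.75), Igf2bp2 (2.12) and Hamp2 (2.25).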

How the results depend on the processing

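The 1986 genes called for diet numbered 1915 to 2111 under RLE scaling, no filter, DESeq2 and the replicate block (1918), 1841 when all 96 liver samples shared 1 fit and 1563 to 2486 when 1 mouse was left out. Leaving out single mice gave 676 to 1063 higher and 836 to 1423 lower genes, the highest counts being those without high-fat mouse 6. With the GC slope as a term 1113 were called, 496 higher and 617 lower. With library totals 2348 were higher and 581 lower, so the share of called genes that were higher moved from 46.5% to 80.2%. The male minus female difference was called for 102 genes, 273 by DESeq2 and 295 in the fit of all liver samples. B6 minus TH was called for 439, and for 668 by DESeq2. The difference between 16 weeks and 1 week was called for 59, for 232 by DESeq2, for 112 in the fit of all liver samples and for 9 with the GC slope. The cause was not tested.

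Of 163 values of named genes none reversed under DESeq2, RLE scaling, no filter, the replicate block, the GC slope or the fit of all liver samples, and 1, 0, 1, 3, 22 and 32 of them lost their call. Under the replicate block the sex, strain and duration counts were 77, 402 and 71. Same-numbered mice correlated at -0.043 to 0.10 in their deviations, 3 of 6 best with their own number. These correlations cannot decide whether the numbers pair mice. The numbers follow accession order, and the animal labels differ between the diets.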
